A study of Mus musculus with 20 samples.

Results

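In untreated wild-type macrophages, p65 and SOCS1 were mapped on chromatin in 1 library each, which gave 9643 p65 peaks and 9438 SOCS1 peaks. A p65 and a SOCS1 peak that overlapped by at least 1 bp were counted as 1 shared site, and the other peaks as sites of p65 only or SOCS1 only. This gave 7238 p65-only sites, 7033 SOCS1-only sites and 2405 shared sites, or 16676 sites in all. They lay in 16331 of the 96700 merged regions that the 12 peak lists of the series cover.

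Both libraries came from bone marrow-derived macrophages (BMDM) of WT mice of the strain written as C65BL6 in the design text, with no LPS. Marrow cells had been differentiated for 5 days with 20 ng/mL MCSF, the growth factor that drives macrophage development, and were fixed for 1 min before CUT&RUN, in which an antibody directs a nuclease to cut the DNA around its target. The labels title the samples ChIP. Antibodies against p65 and against SOCS1 were used, and 1 IgG library of the same WT control cells served as background for both peak lists. The other 10 lists come from WT cells 30 min or 8 h after 100 ng/mL LPS and from KO cells under the same 3 treatments; the design text gives the KO as NOS1, while the series title is about SOCS1. The sources used here give neither the age of the mice nor how many animals were pooled. With 1 library per antibody there was no spread between replicates to test against, so every interval below is an exact (Clopper-Pearson) 95% interval that covers counting error only.

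p65, encoded by Rela, is an NF-κB subunit that carries a transactivation domain. In resting cells IκB proteins hold most p65 in the cytoplasm, and signals such as LPS release it to the nucleus. SOCS1 is an inducible inhibitor of JAK kinases and part of a ubiquitin ligase, and it has no known DNA-binding domain. It has been linked to the degradation of p65, and in macrophages it restrains the response to interferons and to LPS.

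The depth was 7.69 M tags (1 M is 1000000) for p65 and 6.93 M for SOCS1, and 2.12% of the p65 tags and 2.82% of the SOCS1 tags lay in peaks. Of 20659 putative p65 peaks and 17316 putative SOCS1 peaks, the comparison with IgG removed 8505 and 6136, per the file headers. A site had to hold at least 9 tags in either library, so absence from a list does not show that a factor is absent from a site. Peak centres within 10 kb of either end were found for macrophage lineage genes at 15 of 23 for p65 and 15 of 23 for SOCS1. Neutrophil markers had them at 2 and 5 of 12, lymphocyte markers at 4 and 2 of 14, dendritic cell markers at 7 and 5 of 10, and neuronal and hepatic genes at 1 and 1 of 20. Over all 21887 protein-coding genes the shares were 28.4% for p65 and 28.2% for SOCS1. RNA splicing genes had peak centres at 26 and 28 of 40, so such counts were not particular to macrophage genes. A peak near a gene does not measure the gene's expression.

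The promoters below belong to sites on which the results turn and are RefSeq sequences of the GRCm38.p6 (mm10) build, 250 bases before to 50 bases after the start site, printed 5′ to 3′ on the gene's strand. Capitals mark every match, on either strand, to 1 of 10 motifs: the NF-κB motif, AP-1 (TGANTCA), ETS (CCGGAAGT), PU.1 (GAGGAAGT), GAS (TTCNNNGAA), the CCAAT box, ISRE, NRF1, the GC box (GGGCGG) and the E-box (CACGTG). ETS and PU.1 share their last letters. Of the shared sites, B9d2 (chr7:25680530-25680829, + strand) came first by the lower of its 2 percentile ranks among those with a gene end within 10 kb, and Socs1 (chr16:10785487-10785786, − strand) is the gene of the SOCS1 protein itself.
B9d2: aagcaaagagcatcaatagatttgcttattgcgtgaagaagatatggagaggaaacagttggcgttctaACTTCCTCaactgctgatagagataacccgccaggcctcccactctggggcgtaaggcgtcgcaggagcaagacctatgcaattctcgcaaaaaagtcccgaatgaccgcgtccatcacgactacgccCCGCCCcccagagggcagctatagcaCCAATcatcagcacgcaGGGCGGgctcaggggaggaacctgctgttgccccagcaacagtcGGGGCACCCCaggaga
Socs1: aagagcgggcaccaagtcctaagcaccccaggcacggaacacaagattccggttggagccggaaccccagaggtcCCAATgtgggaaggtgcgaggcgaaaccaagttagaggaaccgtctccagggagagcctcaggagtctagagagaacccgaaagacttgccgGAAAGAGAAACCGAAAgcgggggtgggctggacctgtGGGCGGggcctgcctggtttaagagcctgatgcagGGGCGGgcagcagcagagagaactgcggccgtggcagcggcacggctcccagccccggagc
In B9d2 the run GGGGCACCCC near the end matched the NF-κB motif and lay under both peaks. In Socs1 the run GAAAGAGAAACCGAAA held 2 overlapping ISRE matches, which lay across the edge of the p65 peak and outside the SOCS1 peak.
Of the p65-only sites, Ppfibp1 (chr6:146888244-146888543, + strand) held the highest tag count among those with a gene end within 10 kb, and Nfkbia (chr12:55492598-55492897, − strand) encodes the NF-κB inhibitor IκBα.
Ppfibp1: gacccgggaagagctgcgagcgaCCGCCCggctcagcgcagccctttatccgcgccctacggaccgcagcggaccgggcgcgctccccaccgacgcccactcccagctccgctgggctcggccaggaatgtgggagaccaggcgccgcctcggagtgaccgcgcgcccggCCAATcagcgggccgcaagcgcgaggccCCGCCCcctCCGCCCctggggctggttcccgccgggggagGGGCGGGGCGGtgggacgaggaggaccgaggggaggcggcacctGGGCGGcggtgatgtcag
Nfkbia: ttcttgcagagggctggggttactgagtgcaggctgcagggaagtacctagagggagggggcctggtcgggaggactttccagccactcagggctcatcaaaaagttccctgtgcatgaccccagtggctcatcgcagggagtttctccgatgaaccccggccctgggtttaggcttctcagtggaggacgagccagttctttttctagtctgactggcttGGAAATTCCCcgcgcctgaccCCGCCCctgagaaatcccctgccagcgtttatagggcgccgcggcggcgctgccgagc
In Nfkbia the run GGAAATTCCC matched the NF-κB motif; it lay downstream of the part of the promoter under the p65 peak, which took in 195 of the 300 bases. The p65 peak of Ppfibp1 began near the start site and covered 20 of these bases.
Of the SOCS1-only sites, Cic (chr7:25267449-25267748, + strand) and Stam (chr2:14073850-14074149, + strand) held the highest tag counts among those with a gene end within 10 kb and a promoter sequence at hand.
Cic: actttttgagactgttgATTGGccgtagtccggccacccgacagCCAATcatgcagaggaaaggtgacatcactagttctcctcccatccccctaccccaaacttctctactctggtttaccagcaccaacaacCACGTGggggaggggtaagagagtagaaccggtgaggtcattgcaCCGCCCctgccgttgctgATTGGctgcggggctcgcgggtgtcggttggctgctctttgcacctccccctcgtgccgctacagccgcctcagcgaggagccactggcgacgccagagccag
Stam: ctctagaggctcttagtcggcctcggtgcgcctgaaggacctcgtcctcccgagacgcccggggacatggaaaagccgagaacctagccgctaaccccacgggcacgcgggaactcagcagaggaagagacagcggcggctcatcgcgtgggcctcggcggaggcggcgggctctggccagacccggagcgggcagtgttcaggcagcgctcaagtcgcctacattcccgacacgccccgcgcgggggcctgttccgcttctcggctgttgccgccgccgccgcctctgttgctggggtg
The SOCS1 peak covered 95 of the Cic bases, with none of the marked runs, and 125 of the Stam bases, in which no motif matched.

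Of the p65 peaks, 24.9% (24.1 to 25.8) overlapped a SOCS1 peak, and of the SOCS1 peaks, 25.5% (24.6 to 26.4) overlapped a p65 peak. Each shared site paired exactly 1 peak of each list. With centres within 100 bp as the rule, the shares were 14.4% and 14.7%. The share depended on signal. In the p65 decile with the lowest tag counts 7.88% (6.26 to 9.76) were shared, and in the highest decile 54.2% (51.0 to 57.4), with a higher share in each decile than in the one before it. In the SOCS1 list the lowest decile had 15.6% (13.3 to 18.0) and the highest 36.8% (33.7 to 39.9), and the 3 highest deciles lay within 35.5% to 36.9%. The strongest p65 sites were thus shared more often than the strongest SOCS1 sites, while the weakest p65 sites were shared less often than the weakest SOCS1 sites; each list was cut into deciles of its own.

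**Figure D1:**
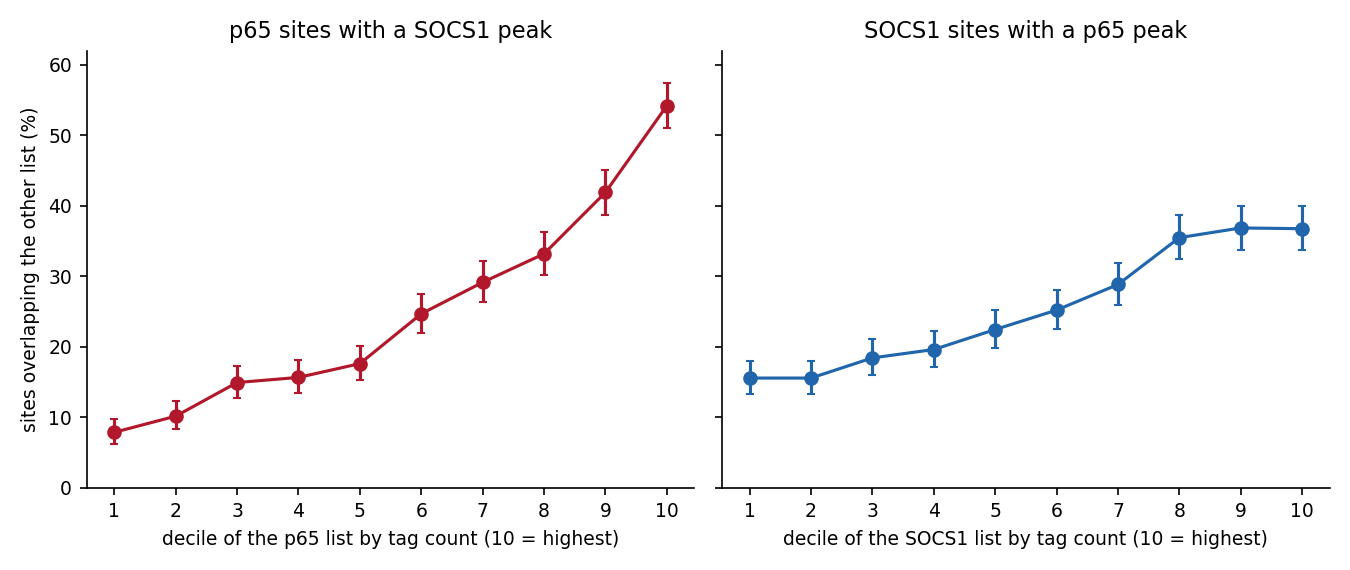
Share of p65 peaks that overlapped a SOCS1 peak (left) and of SOCS1 peaks that overlapped a p65 peak (right), in percent, by decile of each list's tag count; bars are exact 95% intervals. The p65 curve climbs from 7.88% to 54.2%, and the SOCS1 curve climbs from 15.6% and levels off near 36.8% in the top 3 deciles.

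Shared sites ranked higher than unshared ones in both lists. Tag counts are those the authors scaled to 10000000 tags per library, and a percentile is a peak's rank within its own list. In the p65 list the median was 23.4 tags at shared sites and 17.6 at p65-only sites, which are the 71.5 and 42.5 percentiles. In the SOCS1 list it was 28.1 tags at shared sites and 23.1 at SOCS1-only sites, the 63.2 and 44.8 percentiles. The difference of the medians was therefore 29.0 percentile points for p65 and 18.4 for SOCS1.

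The IgG count under the peak moved with sharing as well. In the p65 list its median was 2.0 IgG tags at shared sites and 1.0 at p65-only sites, and in the SOCS1 list 1.9 and 1.4. Its floor, 0.5 IgG tags, was reached under 26.7% of shared and 48.4% of p65-only peaks of the p65 list, and under 25.3% of shared and 37.3% of SOCS1-only peaks of the SOCS1 list. Fold over IgG ran the other way, with a median of 10.0 at shared sites and 17.3 at p65-only sites, and of 11.7 at shared and 12.8 at SOCS1-only sites. Among peaks with IgG at its floor, 15.5% (14.4 to 16.7) of p65 peaks and 18.8% (17.5 to 20.2) of SOCS1 peaks were shared, and above the floor 32.0% (30.8 to 33.3) and 28.9% (27.8 to 30.1). Within the floor group the median percentile was 54.7 at shared and 31.8 at p65-only sites, and 47.8 at shared and 29.8 at SOCS1-only sites, so the difference in rank was present there too. Peaks that passed the 4-fold limit over IgG by less than 1 unit (4- to 5-fold) made up 13.1% of shared and 9.23% of p65-only sites in the p65 list, and 8.86% of shared and 13.8% of SOCS1-only sites in the SOCS1 list.

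The overlap that defined a shared site held its 2 peak centres within 350 bp of each other, so their distance is a description. The centres were a median of 83 bp apart, with the middle 50% between 37 and 153 bp, against peak widths of 359 bp for p65 and 343 bp for SOCS1. Centres lay within 50 bp at 33.9% of shared sites and over 200 bp apart at 15.3%. The ranks of the p65 and SOCS1 tag counts were related across the 2405 shared sites, with a Spearman rho of 0.458; the sites are not independent replicates, and the IgG counts of the same peak pairs, which come from 1 IgG library, had a rho of 0.775. Both peaks were in the top decile of their lists at 205 sites. A top-decile p65 peak met a SOCS1 peak of the bottom quartile at 20 sites, and the opposite was found at 5.

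**Figure D2:**
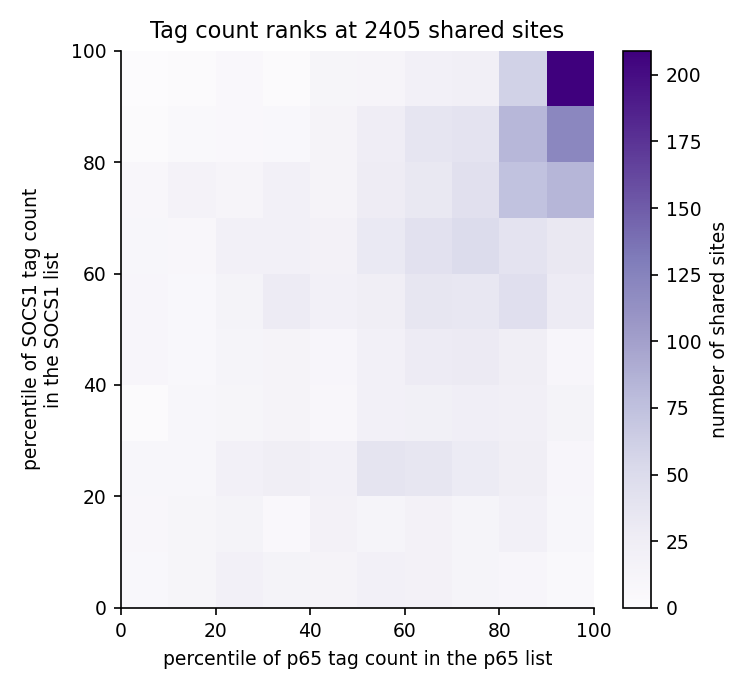
Number of shared sites (colour) by percentile of the p65 tag count in the p65 list (x axis) and of the SOCS1 tag count in the SOCS1 list (y axis), for 2405 shared sites. The fullest cell is the upper right one, which holds the sites in the top decile of both lists.

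Most unshared sites had no peak of the other factor nearby. A SOCS1 peak centre lay within 1 kb of 10.4% (9.71 to 11.1) of p65-only sites and within 10 kb of 30.7%. A p65 peak centre lay within 1 kb of 10.8% (10.1 to 11.6) of SOCS1-only sites and within 10 kb of 33.9%.

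Ordered by the lower of their 2 percentile ranks, the first 8 shared sites with a gene end within 10 kb were at genes of varied function. Single shared peaks reached 356.9 p65 tags and 437.2 SOCS1 tags at other sites. At B9d2, a gene of the ciliary transition zone, p65 had 122.2 tags and SOCS1 141.4, and the same site lay within 10 kb of Tgfb1, which encodes the cytokine TGF-β1. The IgG counts there were 16 and 13.6, so the folds over IgG were 5.65 for p65 and 7.22 for SOCS1. Gsk3b, a kinase of glycogen and Wnt signalling, had 76.7 p65 tags and 144.3 SOCS1 tags 155 bp from a gene end, with 6.5 and 6.1 IgG tags. Sec16a, which organises vesicle exit from the endoplasmic reticulum, had 80.0 and 117.6 tags. Aco1, the iron-responsive cytosolic aconitase, had 111.8 and 103.2 tags, and Apobec1, a cytidine deaminase that edits RNA, had 88.4 and 110.4 at a site 6614 bp from its end. The other 3 of these 8 sites were at Fbrs, 0610009B22Rik and Tbl2, with 71.5 to 98.2 p65 tags and 111.1 to 168.1 SOCS1 tags. At Tbl2 the p65 peak was 4.07-fold over IgG, near the 4-fold limit.

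Some shared sites were strong for 1 factor and weak for the other. Ier3, an immediate-early gene and NF-κB target that regulates cell survival, had 40.3 p65 tags and 15.2 SOCS1 tags at 199 bp from its end. Pafah1b3, Arpc1b (a subunit of the actin-nucleating Arp2/3 complex) and Galt (an enzyme of galactose metabolism) were the other sites with the largest excess of p65 rank, with 33.2 to 44.2 p65 tags and 14.4 to 16.6 SOCS1 tags. In the other direction Rbbp5, a subunit of H3K4 methyltransferase complexes, had 14.3 p65 tags and 97.4 SOCS1 tags. 2410002F23Rik, Hspa8 (a constitutive HSP70 chaperone) and Phlpp1 (a phosphatase of AKT) had 13 to 14.3 p65 tags and 40.4 to 85.9 SOCS1 tags. Each of these 8 genes therefore counted as shared although 1 of the 2 peaks was near the low end of its list.

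p65-only sites reached 171 tags and SOCS1-only sites 414.2; of the 100 highest of each, 54 and 65 had a gene end within 10 kb, and the sites named here are the 8 highest of those. Ppfibp1, which encodes liprin-β1, had 141.1 p65 tags against an IgG count of 1.0. Cd84, a SLAM-family receptor of leukocytes, had 129.4 tags over 3.0 of IgG at a site 9552 bp from its end, Bcl2, the anti-apoptotic protein, had 91.7 over 2.0, and Ptpn22, a phosphatase of immune receptor signalling, had 87.1 over 2.0. Ell, a transcription elongation factor, had 133.3 p65 tags over 22.5 of IgG, a 4.38-fold excess, and Kcnab3 had 124.8 over 23.0, a 4.02-fold excess, so both just passed the 4-fold limit. Both were also called for SOCS1 in each of the 5 other SOCS1 lists. The other 2 of these 8 p65-only sites were at Tmem243, with 124.2 tags, and Kctd21, with 90.4.

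Of the SOCS1-only sites, Rpl7, a protein of the large ribosomal subunit, led with 414.2 tags over 10.8 of IgG. Its clonal ratio, the fold by which unique tag positions fell below the number expected, was 1.98 against the authors' limit of 2. Cic, a transcriptional repressor, had 408.4 tags over 26.2, and Stam, an adaptor of endosomal sorting and cytokine receptor signalling, had 353.5 over 8.4 with a clonal ratio of 1.92. Apip, an enzyme of methionine salvage, had 203.5, and Ptges2, a prostaglandin E synthase, had 195.5 at a site also within 10 kb of Lcn2, the iron-siderophore binder lipocalin 2. Hnrnpa1, an RNA-binding protein of splicing, Mnt, a partner of MAX, and Nme6 had 165.2 to 166.7 tags. The clonal ratio was also near its limit at Hnrnpa1, with 1.98, and at Apip, with 1.93. It was 1.64 to 1.80 at Cic, Ptges2, Mnt and Nme6. p65 was not called at any of these 8 sites in untreated WT cells. In the p65 list the limit over IgG applied here as well, and the IgG count of the WT control library ranged over 1.9 to 26.2 tags at these sites. Among the shared sites named above, 0610009B22Rik had a clonal ratio of 1.94 for p65.

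Shared sites lay closer to gene ends than the others. The gene table gives both ends of 21887 protein-coding genes, and a peak centre within 1 kb of either end was found at 23.5% (22.5 to 24.5) of p65-only sites, 25.5% (24.5 to 26.5) of SOCS1-only sites and 36.8% (34.9 to 38.8) of shared sites. Over all merged regions of the series it was 16.4%, and over those with neither peak 14.5%. The median distance to the nearest end was 8973 bp for p65-only, 7947 bp for SOCS1-only and 4121 bp for shared sites. Counted from the start sites of the promoter table, 21.8% of p65-only, 22.8% of SOCS1-only and 34.3% of shared sites lay within 1 kb, against 14.2% of the merged regions. More than 10 kb from any gene end were 48.1%, 46.3% and 37.8% of the 3 classes in the same order.

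**Figure D3:**
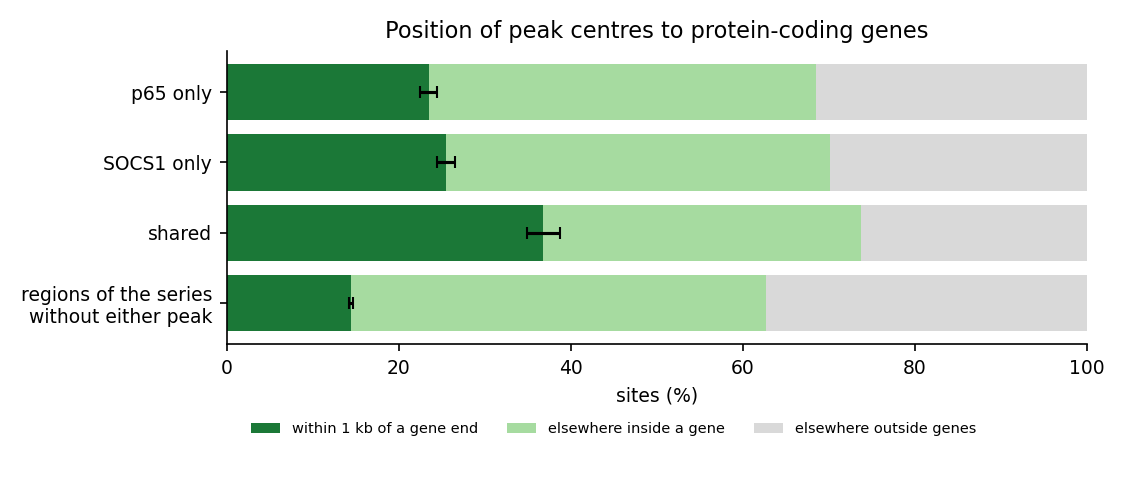
Share of sites (x axis, percent) whose peak centre was within 1 kb of a gene end, farther inside a gene or farther outside genes, for p65-only, SOCS1-only and shared sites and for regions of the series without either peak; bars at the first boundary are exact 95% intervals. The share near gene ends is 36.8% at shared sites, against 23.5% at p65-only, 25.5% at SOCS1-only and 14.5% at other regions.

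The difference in position narrowed with signal. In the lowest quartile of the p65 list 34.1% (28.3 to 40.4) of shared and 18.1% (16.5 to 19.8) of p65-only sites lay within 1 kb of a gene end, and in the highest quartile 37.6% (34.7 to 40.6) and 32.1% (29.6 to 34.7). In the SOCS1 list the lowest quartile had 36.8% (32.0 to 41.9) of shared and 19.8% (18.1 to 21.6) of SOCS1-only sites, and the highest 37.6% (34.4 to 40.9) and 34.2% (31.8 to 36.7), where the intervals met. Across chromosomes with more than 2 p65 peaks, the shared part of the p65 list ran from 17% (11.8 to 23.4) on chromosome X to 32.6% (27.5 to 38.0) on chromosome 19.

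Promoters under a peak resembled each other in base composition whichever factor was called. Of 21263 promoters of 17492 genes, 4.15% overlapped a p65-only peak, 5.19% a SOCS1-only peak and 2.7% both peaks of a shared site. The median GC content was 61.0%, 60.3% and 60.0% in the p65-only, SOCS1-only and shared promoters, against 56.3% of all promoters. The GC box was in 62.1%, 64.6% and 62.6%, against 46.2% of all, and the ETS motif in 11.3%, 9.07% and 10.3%, against 5.15%. The E-box was in 9.63% (7.76 to 11.8) of p65-only, 13.2% (11.3 to 15.4) of SOCS1-only and 12.7% (10.1 to 15.7) of shared promoters, against 7.84% of all. The NF-κB motif was in 6.80% (5.23 to 8.66) of p65-only promoters, whose interval lay above the 4.81% of all promoters. It was in 4.62% (3.46 to 6.03) of SOCS1-only and in 5.57% (3.84 to 7.77) of shared promoters, and these intervals overlapped that of p65-only promoters. The part of base composition in these shares was not tested. Motifs bound by STAT factors did not stand out: GAS was in 7.59%, 7.16% and 7.83% against 7.69% of all, and ISRE in 3.74%, 2.99% and 4.00% against 3.35%. AP-1 was in 4.64%, 4.17% and 4.87% against 6.99%. A match is a run of letters in a promoter and not a measured binding site.

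Genes and sites were counted by different rules, so the agreement by gene cannot be set against that by site. A shared site needed overlapping peaks. A gene with both factors needed only a peak centre of each within 10 kb of either end, which is a looser rule. A p65 site lay within 10 kb of an end of 28.4% of the 21887 genes, and a SOCS1 site of 28.2%. Both factors had a site at 3779 genes, which are 60.9% of the genes with p65 and 61.2% of the genes with SOCS1. Of all genes, 10.1% had a shared site, 7.19% had p65 and SOCS1 at separate sites, 11.1% had p65 alone, 10.9% had SOCS1 alone and 60.7% had neither. The share with a shared site was 5.03% with peaks at least 8-fold above the local background and 6.51% when each site was linked to the nearest gene alone. Piezo1, a mechanosensitive ion channel, had 4 shared sites, and 11 other genes had 3, among them B2m, the light chain of MHC class I, and Il10ra, the IL-10 receptor; these 12 were picked out after their counts were seen. The counts in the gene lists are to be set against these shares, which the 8 housekeeping lists exceeded as well, and nothing in them is shown to be particular to a list.

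**Figure D4:**
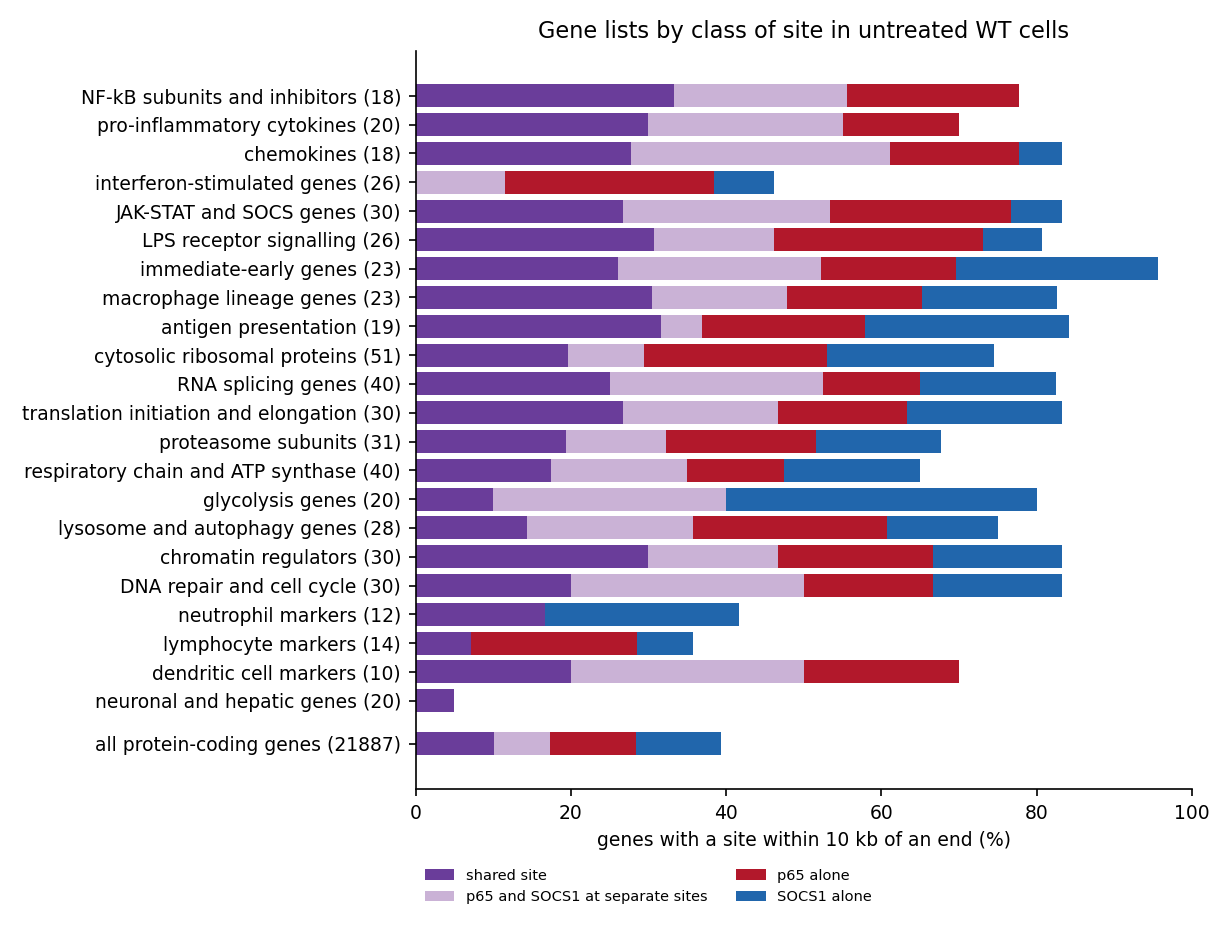
Share of the genes of each list (x axis, percent; number of genes in brackets) with a shared site, with p65 and SOCS1 at separate sites, with p65 alone or with SOCS1 alone within 10 kb of a gene end; the bottom bar is all protein-coding genes. The interferon-stimulated bar has no shared part, and the glycolysis bar has no p65-alone part.

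Genes of the NF-κB system itself had p65 at 14 of 18 and SOCS1 at 10 of 18, against 28.4% and 28.2% of all genes. SOCS1 was found there at no gene without p65, while 10.9% of all genes had SOCS1 alone. Dendritic cell markers and neuronal and hepatic genes had no gene with SOCS1 alone either. Of the 18 NF-κB genes, 6 had a shared site, 4 had separate sites, 4 had p65 alone and 4 had neither. Nfkb2, the p100/p52 subunit, had 78.0 p65 tags and 45.5 SOCS1 tags at a shared site 3629 bp from its end. Bcl3, a nuclear IκB protein, had 39.7 and 29.6, and Nfkbib, which encodes IκBβ, had 48.1 and 27.4, at 291 bp from its end. Tnip2, an A20-binding inhibitor, had 17.6 and 31.0. Nfkbia had 2 p65 peaks, of 43.6 and 38.4 tags, and Rela had 1 of 25.4 tags at 247 bp from its end, both with no SOCS1 peak. Chuk, the kinase IKKα, also had p65 alone, with 20.8 tags.

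Cytokine and chemokine genes also had p65 at more members than SOCS1. Of 20 pro-inflammatory cytokines, 14 had p65 and 11 had SOCS1, against 28.4% and 28.2% of all genes. Again none had SOCS1 alone, against 10.9% of all genes. Of 18 chemokines the counts were 14 and 12, against the same shares of all genes, with SOCS1 alone only at Ccl24. Il23a, a subunit of IL-23, had 31.2 p65 tags and 59.2 SOCS1 tags at a shared site, and Ebi3, a subunit of IL-27, had 41.0 and 39.0. Osm, oncostatin M, had 14.3 and 44.7. The neutrophil chemokine genes Cxcl1 and Cxcl2 lay within 10 kb of the same shared site of 36.4 and 70.0 tags. Ccl2 and Ccl7, monocyte chemokines, shared another of 27.3 and 31.0 tags. A SOCS1-only peak of 124.1 tags lay 4448 bp from an end of Ccl2 and 3812 bp from one of Ccl7. That peak had 19.7 IgG tags and was 4.37-fold over IgG, near the 4-fold limit. The interferon-induced chemokines Cxcl10 and Cxcl9 had p65 alone, with 31.2 and 18.2 tags, as did Ccl5 with 29.9.

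Interferon-stimulated genes had the fewest sites of the immune lists, and none of the 26 had a shared site, against 10.1% of all genes. p65 was at 10 genes, or 38.5%, above the 28.4% of all genes. SOCS1 was at 5, or 19.2%, below the 28.2% of all genes. p65 alone was at 7, or 26.9% against 11.1%, SOCS1 alone at 2 and separate sites at 3. With 26 genes these counts are small. Oas1a, an antiviral synthetase, had 33.8 p65 tags at 387 bp from its end, Ifit1, which binds viral RNA, had 29.9 at 396 bp, and Ifi44 had 20.8 at 22 bp. Ifit2 had 25.3 SOCS1 tags at 181 bp and Ddx58, the RNA sensor RIG-I, 19.5 at 457 bp.

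Genes of JAK-STAT signalling and the SOCS family had p65 at 23 of 30 and SOCS1 at 18 of 30, with a shared site at 8. Over all genes these shares were 28.4%, 28.2% and 10.1%, and the housekeeping lists exceeded them too. Socs1 itself had 44.9 p65 tags and 33.9 SOCS1 tags, 251 and 259 bp from its end, over IgG counts of 1.5 and 2.3. Cish, another member of the SOCS family, had 31.2 and 31.0. Ifnar2, a chain of the type I interferon receptor, had 30.6 and 46.2, and Stat2 had 20.8 and 27.4. Stat5a with 28.6 tags, the phosphatase gene Ptpn2 with 26.0 and the interferon-γ receptor gene Ifngr1 with 22.1 had p65 alone. The phosphatase gene Ptpn1 with 59.9 tags and the kinase gene Tyk2 with 26.7 had SOCS1 alone. Nos1 had a peak of neither.

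LPS receptor signalling genes had p65 at 19 of 26 and SOCS1 at 14 of 26, with a shared site at 8. Over all genes these shares were 28.4%, 28.2% and 10.1%. Ticam1, the adaptor TRIF, had 2 shared sites, of 52.0 p65 and 122.7 SOCS1 tags and of 35.1 and 37.5. Traf3, a ubiquitin ligase of the same pathway, had 57.2 and 46.2, and Map3k8, the kinase TPL2, had 43.6 and 43.3. The p65 fold over IgG was 4.28 at the stronger Ticam1 site and 4.30 at Map3k8, near the 4-fold limit. The SOCS1 fold at Map3k8 was 4.00. Of the 3 interferon regulatory factors in the list, Irf5 had SOCS1 alone with 151.5 tags over 18.7 of IgG, and so did Irf3 with 76.5 over 9.4. Irf7, named after its values were seen, had a shared site of 109.9 p65 tags and 28.9 SOCS1 tags. Ripk1, Tab3 and Tab1 had p65 alone, with 24.1, 19.5 and 18.2 tags.

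Immediate-early genes had p65 and SOCS1 at similar numbers of genes, while glycolysis genes had SOCS1 at more. Of 23 immediate-early genes, 16 had p65 and 18 had SOCS1, against 28.4% and 28.2% of all genes. p65 alone was at 4 and SOCS1 alone at 6, against 11.1% and 10.9% of all genes. Klf6, a zinc finger factor, had 55.9 p65 tags and 55.6 SOCS1 tags, and Junb, an AP-1 subunit, 39.7 and 54.1. Jund with 62.1 tags, Zfp36, which destabilises cytokine mRNA, with 52.0 and Fosb with 41.8 had SOCS1 alone, while Myc with 22.8 had p65 alone. Of 20 glycolysis genes, 8 had p65 and 16 had SOCS1, or 40% and 80%, against 28.4% and 28.2% of all genes. p65 alone was at 0 and SOCS1 alone at 8, against 11.1% and 10.9% of all genes. With 20 genes these counts are small. Pfkl, a phosphofructokinase, had 47.6 SOCS1 tags at 207 bp, Pgk1 had 31.0 and Pfkm 30.3. Aldoa, an aldolase, had 23.4 p65 and 88.7 SOCS1 tags at a shared site, and Hk3, a hexokinase, 22.1 and 35.4.

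Antigen presentation genes had p65 at 11 of 19 and SOCS1 at 12 of 19, against 28.4% and 28.2% of all genes. B2m had 124.2 p65 tags and 43.3 SOCS1 tags, H2-D1, an MHC class I heavy chain, 58.5 and 40.4, and the proteasome activator genes Psme1 and Psme2, near the same site, 76.7 and 85.1. Psmb8, Tap1 and Tap2, which sit side by side in the MHC and prepare peptides for class I, had 1 SOCS1 peak of 41.1 tags and no p65 peak. Cd86, a co-stimulatory ligand, and H2-Ab1, an MHC class II chain, had p65 alone, each with 16.9 tags. Among macrophage lineage genes Cd68, an endosomal glycoprotein, had 44.2 and 73.6 tags at a site shared with Eif4a1. Runx1 had 27.3 and 49.8 and Fcgr1, an IgG receptor, 33.8 and 26.7. Ctsb, a cathepsin, had p65 alone with 61.8 tags at 9760 bp, and Lgals3, galectin-3, SOCS1 alone with 42.6.

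Most housekeeping lists had p65 and SOCS1 at similar numbers of genes. The gap at lysosome and autophagy genes was as wide as that at the cytokines, and glycolysis genes, given above, are not among these lists. Over all genes the shares were 28.4% for p65 and 28.2% for SOCS1. The counts with p65 and with SOCS1 were 27 and 26 of 51 ribosomal protein genes, 26 and 28 of 40 splicing genes, 19 and 20 of 30 translation factors, 16 and 15 of 31 proteasome subunits and 19 and 21 of 40 respiratory chain genes. They were 17 and 14 of 28 lysosome and autophagy genes, 20 and 19 of 30 chromatin regulators and 20 and 20 of 30 DNA repair and cell cycle genes. Brd2, a reader of acetylated histones, had 33.2 p65 tags and 137.8 SOCS1 tags at a shared site. The p65 peak there was 4.09-fold over IgG, near the 4-fold limit. Ndufs8, a subunit of complex I, had 39.0 and 85.1, and Snrpa, a U1 snRNP protein, 44.9 and 72.9. Trp53, the p53 gene, had 50.7 and 36.1. E2f3 with 98.1 tags and Atp6v1a, a proton pump subunit, with 76.5 had SOCS1 alone, and Mllt6 with 77.4 and Ndufs3 with 37.1 had p65 alone. Taking all 22 lists, 559 genes were looked up and all were found in the gene table; a site near several genes was counted for each of them.

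After LPS, the shared sites of untreated WT cells were called far more often than the unshared ones. A p65 peak at 30 min overlapped 36.7% (35.6 to 37.8) of p65-only, 42.4% (41.3 to 43.6) of SOCS1-only and 71.0% (69.1 to 72.8) of shared sites, against 33.2% of the regions called in any other list. At 8 h it overlapped 32.9%, 39.5% and 71.0%, against 28.7%. Sites found only with the SOCS1 antibody in untreated cells thus held a p65 peak after LPS more often than sites found only with the p65 antibody, and their intervals were apart. A SOCS1 peak at 30 min overlapped 20.4% (19.5 to 21.4) of p65-only, 28.1% (27.0 to 29.1) of SOCS1-only and 50.1% (48.1 to 52.1) of shared sites, against 16.3%, and at 8 h 15.7%, 26.2% and 47.4%, against 12.9%. At either LPS time p65 was called at 46.6%, 53.8% and 85.2% of the 3 classes, against 43.7%, and SOCS1 at 28.6%, 40.3% and 68.3%, against 23.2%. The p65 libraries at 30 min and 8 h held 13.3 and 10.6 M tags and those of SOCS1 9.74 and 9.51 M, and the part of depth in these shares was not tested.

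For p65 at 30 min the order of the classes was the same within each quartile of tag count. In the lowest quartile of its own list 25.8% of p65-only, 29.4% of SOCS1-only and 63.5% of shared sites (by p65 tag count) were called for p65 at 30 min, and in the highest quartile 55.7%, 64.8% and 76.3%. Sites called again also ranked higher in the later lists: the median percentile in the 30 min p65 list was 65.6 at p65-only, 71.3 at SOCS1-only and 82.4 at shared sites. Of the 8 SOCS1-only sites named above, which were picked for their tag counts, all 8 had a p65 peak at both LPS times. Over all SOCS1-only sites of the highest quartile the shares were 64.8% at 30 min and 66.7% at 8 h. At Cic the p65 tag count was 309.6 at 30 min and 137.9 at 8 h, after no call in untreated cells, while SOCS1 had 408.4 in untreated cells, 851.3 at 30 min and 349.1 at 8 h. At Stam p65 had 74.3 and 36.4 tags after no call, and SOCS1 had 353.5 in untreated cells, no call at 30 min and 103.6 at 8 h. Of the 8 p65-only sites named above, also picked for their tag counts, 5 had a SOCS1 peak at an LPS time and 7 a p65 peak. Over all p65-only sites these shares were 28.6% and 46.6%. Cd84 had neither peak. At Bcl2 p65 had 91.7 tags in untreated cells, 23.6 at 30 min and no call at 8 h.

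**Figure D5:**
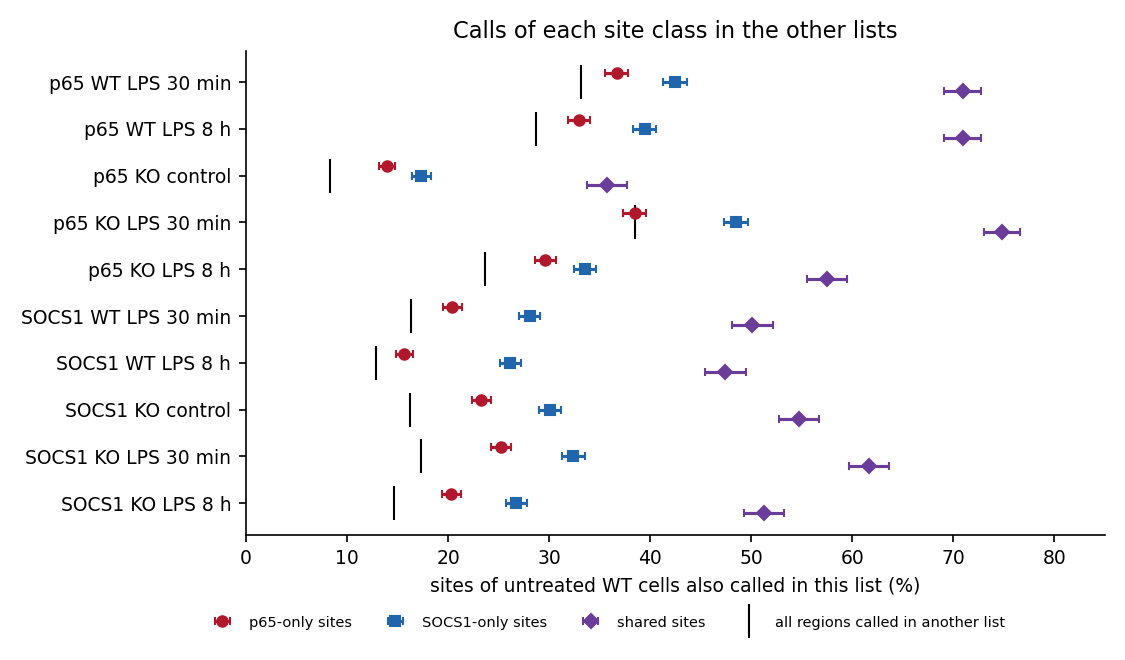
Share of p65-only, SOCS1-only and shared sites of untreated WT cells (x axis, percent, with exact 95% intervals) that overlapped a peak of each of the other 10 lists; black ticks give the share over all regions called in another list. Shared sites are the highest class in every list, and SOCS1-only sites lie above p65-only sites in every list, p65 lists included.

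The KO lists gave the same order. In untreated KO cells p65 was called at 13.9% of p65-only, 17.4% of SOCS1-only and 35.7% of shared sites, against 8.32% of the regions called in another list. SOCS1 was called there at 23.3%, 30.1% and 54.8%, against 16.2%. In KO cells 30 min after LPS p65 was called at 38.5%, 48.5% and 74.8%, against 38.5%, and SOCS1 at 25.2%, 32.4% and 61.7%, against 17.3%. At 8 h the values were 29.6%, 33.5% and 57.5% for p65, against 23.7%, and 20.3%, 26.7% and 51.3% for SOCS1, against 14.7%. The design text gives the KO as NOS1, and the series title, which is about SOCS1, does not settle the disrupted gene. The SOCS1 peaks of KO cells therefore cannot be read as a test of the antibody. Sites in none of the other 10 lists made up 33.4% (32.3 to 34.5) of p65-only, 25.4% (24.4 to 26.4) of SOCS1-only and 2.37% (1.80 to 3.06) of shared sites. Sites in all 10 made up 0.677%, 1.39% and 4.49%.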

How the data were processed

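CUT&RUN libraries were trimmed with cutadapt, aligned to mm10 with Bowtie2 2.4.1 and processed with HOMER 4.11, per the submitters' processing notes. Per the file headers, findPeaks in factor style called both lists of untreated WT cells against the WT control IgG library at an FDR of 0.001, with limits of 4-fold over IgG and 4-fold over the local 10000 bp, a Poisson p of 0.0001, at most 1 tag per bp and a clonal limit of 2. The signal is the tag count of a peak, which the authors scaled to 10000000 tags per library. The score is the authors' findPeaks score in unscaled tags, the ratio is the authors' fold over IgG, local background or clonal expectation, and the focus ratio of a peak is a fraction that the authors deposited; the deposited p-value of each peak was not used. The deposited IgG tag count has a floor of 0.5.

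Peaks of 2 lists counted as shared from an overlap of 1 bp. Ranks are percentiles of the tag count within a list. Deciles and quartiles split tied tag counts by their order in the list. A gene was linked where either end of a protein-coding gene of the GRCm38.p6 table lay within 10000 bp of a peak centre. That table holds no strand, so start sites came from the RefSeq promoter table, a measure added after the data were seen. With 1 library per antibody no test between groups was made. Alternatives were a stricter local fold, other overlap rules, the 5000 highest peaks, IgG above its floor, the score for ranking, and other gene distances.

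The members and gene lists were chosen with earlier results of these data known. Named were the 8 sites of each class with the highest tag count and a gene end within 10000 bp (shared sites by the lower of their 2 percentiles), the 4 shared sites with the largest rank difference in each direction, up to 4 shared, 3 p65-alone and 3 SOCS1-alone genes of each list by rank, and Socs1, Rela, Nos1 and Nfkbia. Python 3.11.15, pandas 2.3.3 and scipy 1.17.1 were used. The overlap, gene-link and nearest-end steps were checked on simulated data, and the rank and interval steps were not. The 2 internal control libraries and the spike-in were not used here.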

Additional observations from a re-analysis of the deposited data

How the results depend on the processing

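Of 39 alternative values, 9 moved by less than their counting interval and 30 by more; most are shares, which have no sign, and the rank differences stayed positive. The share of p65 sites with a SOCS1 peak was 21.8% with peaks at least 8-fold above the local background, 29.7% with IgG above its floor, 26.2% with the top 5000 peaks of each list, 14.4% with centres within 100 bp and 20.2% with an overlap of at least 50% of the shorter peak. The share of SOCS1 sites with a p65 peak was 17.6% with the 8-fold limit, below that of p65 and not above it as in the main analysis, 14.7% with centres within 100 bp and 20.7% with the 50% overlap. The rank difference of shared minus p65-only sites was 32.0 points by the authors' score and 33.9 with the 8-fold limit, and that of shared minus SOCS1-only sites was 21.3 by the score. Within 500 bp of a gene end lay 16.9% of p65-only, 19.2% of SOCS1-only and 29.6% of shared sites, and with the 8-fold limit 40.1% of shared sites lay within 1 kb. Genes with a shared site were 7.55% within 5 kb, 6.51% by the nearest gene alone and 5.03% with the 8-fold limit; genes with p65 alone were 9.91%, 9.76% and 8.46%, and genes with SOCS1 alone 10.1%, 9.39% and 13%, so SOCS1 alone was the more frequent within 5 kb and with the 8-fold limit. With centres within 500 bp counted as called, p65 was found after LPS in WT cells at 55.8% of p65-only and 90.8% of shared sites and SOCS1 at 48.1% of SOCS1-only sites; with the 8-fold limit these were 36.5%, 81.7% and 35.6%. No paired analysis was possible because each antibody had 1 library. Depth limits the lists to sites of at least 9 tags, and most of these values rest on few tags per site.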
